A study of Mus musculus with 9 samples.

Results

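The GABA-A receptor subunit genes described here are Gabra2, Gabra3, Gabra4, Gabra5, Gabrb1, Gabrb2 and Gabrd, 7 of the 22255 genes in the deposited table. They were chosen by name, as a fixed list of subunit symbols matched to Ensembl identifiers without their version number, and all 7 were found and were abundant enough to be tested. RNA came from hippocampal synaptoneurosomes, a fraction of the homogenate enriched in pinched-off synaptic terminals, of Fmr1 KO mice on the C57Bl/6J strain. Every animal lacked Fmr1, the gene silenced in fragile X syndrome, and wild-type mice are not part of the data used here. The treated group had 4 samples (replicates A, B, C and E) from mice given AM6545 sub-chronically, and the control group had 5 samples (replicates A to E) from mice given vehicle. AM6545 blocks the cannabinoid receptor CB1 and enters the brain poorly. Dose, days of treatment, age and sex are not given in the sources used here, and nothing there says whether a sample is 1 animal or a pool, so the tests measure the spread between these samples.

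GABA-A receptors are chloride channels opened by GABA, the main inhibitory transmitter of the brain, and each is a ring of subunits built mostly from alpha and beta subunits with a gamma or delta subunit. The subunit mix sets where a receptor sits and how it responds: receptors with gamma subunits cluster at synapses, while delta-containing receptors, often with alpha4, and most alpha5-containing receptors lie outside synapses and carry a tonic current. In hippocampus alpha5 is typical of pyramidal cells, and alpha4 with delta is typical of dentate granule cells. Reduced expression of several GABA-A subunits has been described in Fmr1 knockout brain, and the delta subunit mRNA has been described as bound by FMRP, the protein that Fmr1 encodes.

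Depth ran from 17629017 to 27263574 estimated counts per sample, of which the 7 genes held 17734 to 29687 counts. Markers of hippocampal cells were present in every sample, with Prox1 of dentate granule cells at 53.1 to 63.8 CPM and Fibcd1 of CA1 pyramidal cells at 77.9 to 156 CPM. CPM is the count scaled to a common library size by edgeR, with TMM factors. Gabra6, the alpha6 subunit that marks cerebellar granule cells, had at most 1 count in a sample. The 8 markers listed for those cells, Gabra6 included, summed to 250 to 281 CPM in AM6545 samples and 235 to 359 CPM in vehicle samples. In the same order, sums were 157 to 209 and 168 to 196 CPM for 9 thalamus markers. For 9 striatum markers they were 214 to 247 and 214 to 287 CPM. The level of Gabra6 alone therefore does not stand for these lists. Choroid plexus markers differed most between samples, with a summed level of 467 to 3603 CPM in AM6545 samples and 323 to 11070 CPM in vehicle samples. All 11 choroid plexus markers tested and all 8 ependymal markers had a log2 fold change below 0, with medians of -1.47 and -0.77. Over all genes tested, 48.2% had a log2 fold change above 0. By edgeR's test 3 of the 11 and 5 of the 8 had an unadjusted p under 0.05, as did 7.21% of all genes tested. The part of these markers in the values of the subunit genes was not tested.

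The comparison of AM6545 with vehicle asks whether the subunit transcripts in this synapse-enriched hippocampal fraction differ after peripheral CB1 blockade. The fraction also held glial RNA. Oligodendrocyte markers summed to 13230 to 18980 CPM in AM6545 samples and 10900 to 22660 CPM in vehicle samples. Astrocyte markers summed to 4811 to 5048 and 3826 to 5789 CPM. None of the 7 genes passed the threshold, an adjusted p of 0.05 by edgeR's quasi-likelihood test with Benjamini-Hochberg adjustment over 14512 genes. Over the whole table the number that passed was 0, or 0%, and 7.21% (1047 genes) had an unadjusted p under 0.05, which 0 of the 7 reached. Groups stood apart, with no overlap of their CPM values, for 1.45% of all genes and for 0 of the 7. A log2 fold change above 0 was seen for 48.2% of all genes and for 6 of the 7. The median log2 fold change of the 7 was 0.08, beside -0.009 over all genes tested. Neither comparison with all genes was matched for transcript length. Long transcripts tended to have the higher values here (Spearman correlation 0.237, 14494 genes). Every member but Gabrd exceeded the median length of the tested genes, 2254.5 bases. With a trend on length taken out of each sample, Gabra2 (-0.02) joined Gabra4 (-0.07) below 0. Gabra3 (0.06), Gabra5 (0.03), Gabrb1 (0.05), Gabrb2 (0.13) and Gabrd (0.18) stayed above 0. Fitted folds ran from 0.964 for Gabra4 to 1.13 for Gabrd, and the widest 95% interval, that of Gabrb2, went from 0.890-fold to 1.39-fold. In bulk RNA fewer cells of a type and less RNA per cell cannot be told apart.

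**Figure D1:**
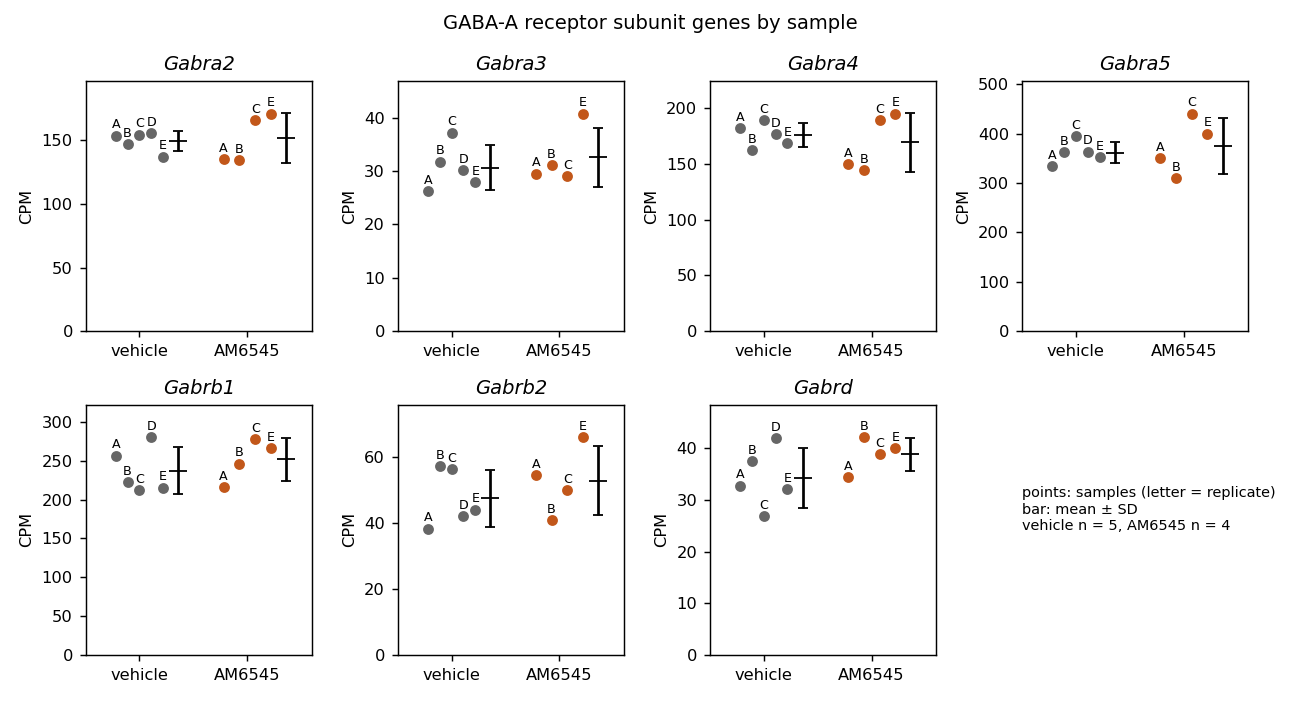
CPM (y axis, from 0) of each GABA-A receptor subunit gene in each sample, grouped by vehicle (grey, n = 5) and AM6545 (orange, n = 4), with the replicate letter over each point and the mean ± SD beside each group. The groups overlap for all 7 genes, and for Gabra2 and Gabra4 the AM6545 samples A and B lie below samples C and E.

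Among the alpha subunits, Gabra5 (ENSMUSG00000055078.8) encodes alpha5. Its level was 350, 311, 441 and 400 CPM in AM6545 samples A, B, C and E, and 335, 362, 395, 364 and 352 CPM in vehicle samples A to E. AM6545 C and E were above every vehicle sample, and AM6545 B was below every vehicle sample. Means were 375 ± 56.9 CPM (n = 4, SD) and 362 ± 21.8 CPM (n = 5, SD), with a log2 fold change of 0.05 (SE 0.11, 95% interval -0.19 to 0.29, edgeR adjusted p = 0.904). Without AM6545 C the log2 fold change was -0.03, and without AM6545 B it was 0.13. In GENCODE M21 a non-coding antisense model, Gm9962, covers 148 of the 2974 exon bases of Gabra5, and the strand setting of the counting is not given in the sources used here. The 7 CA1 pyramidal cell markers all had a log2 fold change above 0, 1 of them with an unadjusted p under 0.05, and summed to 588 to 661 CPM in AM6545 samples and 513 to 629 CPM in vehicle samples. Of 7 CA3 pyramidal cell markers 4 had a log2 fold change above 0 and 3 below, 1 of the 7 had an unadjusted p under 0.05, and their sums were 297 to 382 CPM and 288 to 331 CPM. Of all genes tested, 48.2% had a log2 fold change above 0 and 7.21% an unadjusted p under 0.05 by edgeR's test. The part of either marker list in the level of Gabra5 was not tested.

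Gabra4 (ENSMUSG00000029211.12) encodes alpha4, the usual partner of delta in the forebrain. It was at 149, 144, 189 and 195 CPM in AM6545 samples A, B, C and E, and at 182, 162, 189, 177 and 168 CPM in vehicle samples A to E. The AM6545 samples lay on both sides of the vehicle values, with A and B below all of them and E above. It was the one gene of the 7 with a lower mean in AM6545 samples, at 169 ± 26.3 CPM (n = 4, SD) against 176 ± 10.6 CPM (n = 5, SD). The log2 fold change was -0.05 (SE 0.11, 95% interval -0.29 to 0.18, edgeR adjusted p = 0.902), and it was 0.0023 without AM6545 A and 0.02 without AM6545 B.

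Gabra2 (ENSMUSG00000000560.10) encodes alpha2, a synaptic subunit found among other places at the axon initial segment. It was at 135, 134, 166 and 171 CPM in AM6545 samples A, B, C and E, and at 154, 147, 154, 156 and 137 CPM in vehicle samples A to E. As for Gabra4, AM6545 A and B were below every vehicle sample; here C and E were both above. Means were 152 ± 19.5 CPM (n = 4, SD) and 150 ± 7.76 CPM (n = 5, SD), a log2 fold change of 0.02 (SE 0.10, 95% interval -0.20 to 0.23, edgeR adjusted p = 0.962). Without AM6545 E that value was -0.04 without AM6545 C -0.03 and without vehicle E -0.01. The share of mitochondrially encoded counts separated the same samples, at 4.80% and 4.3% in AM6545 A and B and 5.82% and 6.73% in C and E. In vehicle samples A to E it was 7.90%, 5.48%, 5.07%, 6.54% and 4.06%, and vehicle A, with the highest share of all, had less Gabra2 than AM6545 C and E. Its part in these levels was not tested.

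The bases before the starts of Gabra2 and Gabra4 are printed here because, of all pairs among the 7 genes, these varied together most closely between samples. They are the stretches at chr5:71095850-71096099 and chr5:71658364-71658558 of GRCm38.p6, minus strand, from RefSeq, 5′ to 3′, without bases in an exon of GENCODE M21, and capitals mark the GC box GGGCGG on either strand, the core of the binding site of the general activator Sp1.
Gabra2: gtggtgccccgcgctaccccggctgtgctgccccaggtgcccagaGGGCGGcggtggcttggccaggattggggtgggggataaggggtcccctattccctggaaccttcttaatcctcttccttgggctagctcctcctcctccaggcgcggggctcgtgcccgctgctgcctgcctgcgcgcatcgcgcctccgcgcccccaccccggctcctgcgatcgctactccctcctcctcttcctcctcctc
Gabra4: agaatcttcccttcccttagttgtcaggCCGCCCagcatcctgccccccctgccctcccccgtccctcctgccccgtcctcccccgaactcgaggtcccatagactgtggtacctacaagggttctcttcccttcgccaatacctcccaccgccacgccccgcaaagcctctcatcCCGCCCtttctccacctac
The 250 bases before the start held 18 CpG dinucleotides for Gabra2 and 12 for Gabra4, beside a median of 6 over all 32851 promoters of the table. It holds 10 promoters of 6 of the 7 genes. Those of Gabrb1 held 18 and 6, that of Gabra5 9, those of Gabrb2 4 to 8 and those of Gabra3 0. GGGCGG was found in 3 of the 10, before Gabra2, Gabra4 and Gabrb2, and in 32.7% of all promoters. The letters TATAAA were found in 3 of the 10, before Gabra3 and Gabrb2, and in 12.4% of all. The windows of the Gabra3 promoters overlap, so their matches may be the same letters. The cyclic AMP response element TGACGTCA was found in none of the 10 and in 1.55% of all. The EGR site GCGNGGGCG, whose last letters can overlap a GC box, was found in 1 of the 10, before Gabrb2, and in 4.70% of all. Both strands were searched, and these are matches of letters in a window of 250 bases.

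Gabra3 (ENSMUSG00000031343.14) encodes alpha3. It was at 29.5, 31.1, 29.0 and 40.8 CPM in AM6545 samples A, B, C and E, and at 26.3, 31.8, 37.2, 30.1 and 27.9 CPM in vehicle samples A to E. AM6545 E was the highest of all samples, and the other AM6545 samples lay inside the vehicle range. Means were 32.6 ± 5.51 CPM (n = 4, SD) and 30.7 ± 4.22 CPM (n = 5, SD). The log2 fold change of 0.09 (SE 0.13, 95% interval -0.18 to 0.36, edgeR adjusted p = 0.851) was -0.04 without AM6545 E and 0.17 without vehicle C.

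The beta subunits form part of the GABA binding site together with alpha. Gabrb1 (ENSMUSG00000029212.12), for beta1, was at 216, 246, 278 and 267 CPM in AM6545 samples A, B, C and E, and at 257, 223, 212, 280 and 215 CPM in vehicle samples A to E. All AM6545 values lay inside the vehicle range. Its means were 252 ± 27.2 CPM (n = 4, SD) and 237 ± 29.7 CPM (n = 5, SD), a log2 fold change of 0.08 (SE 0.11, 95% interval -0.16 to 0.33, edgeR adjusted p = 0.836). That value was 0.03 without AM6545 C and 0.15 without AM6545 A.

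Gabrb2 (ENSMUSG00000007653.13), for beta2, was the most variable of the genes between samples, with a coefficient of variation of 18.5% over the 9 samples against 8.76% for Gabra2, the least variable. It was at 54.3, 40.8, 49.9 and 65.8 CPM in AM6545 samples A, B, C and E, and at 38.2, 57.1, 56.2, 41.9 and 44.0 CPM in vehicle samples A to E. AM6545 E was the highest and vehicle A the lowest, 1.72-fold apart, and the other AM6545 samples lay among the vehicle values. Means were 52.7 ± 10.4 CPM (n = 4, SD) and 47.5 ± 8.62 CPM (n = 5, SD). The log2 fold change was 0.15 (SE 0.15, 95% interval -0.17 to 0.47, edgeR adjusted p = 0.772), 0.03 if AM6545 E is left out and 0.26 if AM6545 B is.

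Gabrd (ENSMUSG00000029054.9), for delta, had the largest fold change of the 7. It was at 34.4, 42.1, 38.8 and 40.0 CPM in AM6545 samples A, B, C and E, and at 32.8, 37.6, 26.8, 42.0 and 32.1 CPM in vehicle samples A to E. All 4 AM6545 samples were above the vehicle mean, and 1 of them was above the highest vehicle sample. Means were 38.8 ± 3.24 CPM (n = 4, SD) and 34.2 ± 5.77 CPM (n = 5, SD), a log2 fold change of 0.18 (SE 0.12, 95% interval -0.08 to 0.44, edgeR adjusted p = 0.688). Without vehicle C, the lowest sample, the log2 fold change was 0.11, and without vehicle D it was 0.26 (edgeR adjusted p = 0.713, with an unadjusted p under 0.05). Over all alternatives its adjusted p lay between 0.496 and 0.929. Of 10 dentate granule cell markers, 8 had a log2 fold change above 0 and 1 an unadjusted p under 0.05, and their summed level was 365 to 408 CPM in AM6545 samples and 298 to 382 CPM in vehicle samples. The shares over all genes tested were 48.2% above 0 and 7.21% with an unadjusted p under 0.05 by edgeR's test. The markers' part in the level of Gabrd was not tested.

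**Figure D2:**
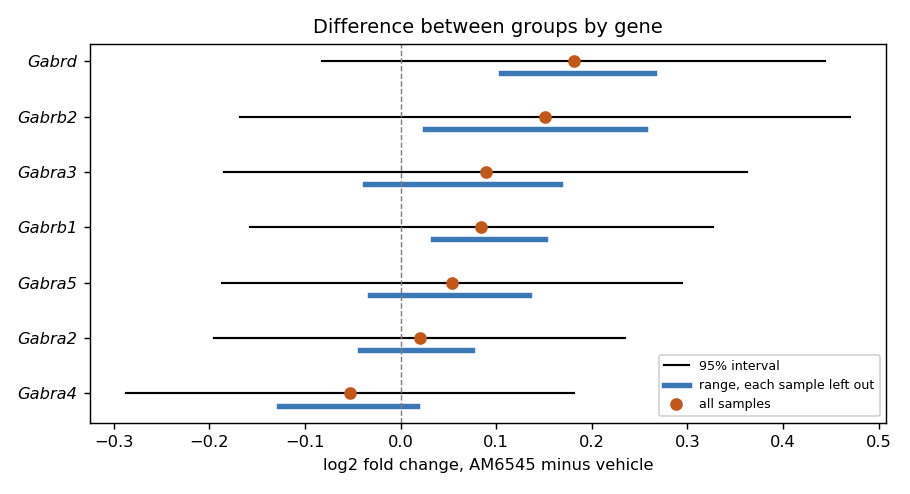
Log2 fold change of AM6545 over vehicle (x axis) for each subunit gene (orange point, all samples), with its 95% interval (black) and the range of the value when each sample is left out in turn (blue). Every interval holds 0, and the left-out ranges of Gabrb1, Gabrb2 and Gabrd stay above 0, the lowest being 0.03 for Gabrb2.

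Levels were compared between genes as CPM per kilobase of transcript, using median transcript lengths from GENCODE M21. Over the 9 samples, Gabra5 was highest at a mean of 141 CPM per kilobase, with a coefficient of variation of 10.6%, and Gabra3 lowest at 11.6, with one of 14.6%, a 12.2-fold difference in level. Gabra4 was second at 71.8 CPM per kilobase, and its range of 59.8 to 80.9 did not overlap that of Gabra5, 119 to 169. Gabrb1 at 33.5 and Gabra2 at 25.7 CPM per kilobase followed; their ranges touched, although Gabrb1 was the higher of the pair in 9 of 9 samples with these lengths. With the longest transcript of each gene as its length this order turned, and Gabrb1 held 6.76% of the summed level of the 7 genes, below Gabra2 at 9.78% and Gabrd at 7.22%. Gabrd at 18.9 and Gabrb2 at 18.0 CPM per kilobase could not be ordered with median lengths, with Gabrd higher in 5 of 9 samples. With the longest transcripts Gabrb2 held 4.74% of the summed level, below Gabrd at 7.22%. The range of Gabra3, 9.64 to 15.0 CPM per kilobase, overlapped that of Gabrb2, and Gabrb2 was the higher in 9 of 9 samples. Among all tested genes with a length, Gabra5 stood at the 94.3rd percentile of this level and Gabra3 at the 55.4th.

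**Figure D3:**
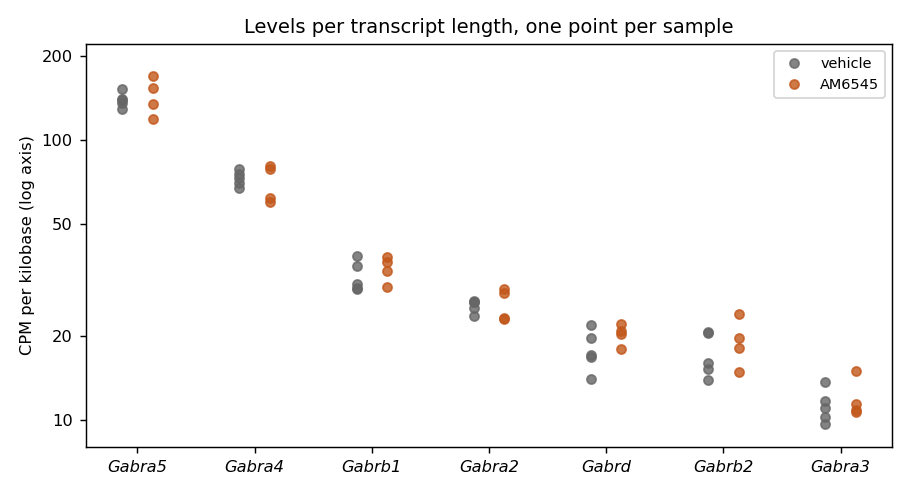
CPM per kilobase of transcript (log y axis) of the subunit genes in order of their mean, one point per sample, vehicle in grey and AM6545 in orange. Lengths are median transcript lengths. Gabra5, between 119 and 169, and Gabra4, between 59.8 and 80.9, stand clear of each other and of the rest in every sample. Gabrd and Gabrb2 share a range with these lengths.

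The summed level of the 7 genes was 326 ± 41.3 CPM per kilobase in AM6545 samples (n = 4, SD) and 316 ± 13.5 in vehicle samples (n = 5, SD). AM6545 B was the lowest of all samples at 284 and AM6545 C the highest at 363, so the treated samples enclosed the vehicle range of 301 to 334. The share of a gene in this sum does not depend on how libraries are scaled. Gabra5 made up 44.1% ± 2.14 in AM6545 samples (n = 4, SD) and 43.9% ± 1.45 in vehicle samples (n = 5, SD). Gabra4 made up 21.5% ± 0.723 (n = 4, SD) and 23.1% ± 1.2 (n = 5, SD). Its shares ran from 20.9% to 22.5% in AM6545 samples and from 21.5% to 24.7% in vehicle samples, so the groups overlapped. Gabrd made up 6.27% ± 0.984 (n = 4, SD) and 5.65% ± 0.949 (n = 5, SD), from 4.18% in vehicle C to 7.72% in AM6545 B. Gabrb1 held 10.7% and 10.3%, Gabra2 7.95% and 8.09%, Gabrb2 5.85% and 5.42%, and Gabra3 3.69% and 3.55% in AM6545 and vehicle samples. These shares use median transcript lengths, and the place of Gabrb1 above Gabra2 and Gabrd was not kept with the longest transcripts.

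The log2 ratio of Gabrd to Gabra4 counts, the usual pair outside synapses of granule cells, was -2.12 ± 0.24 in AM6545 samples (n = 4, SD) and -2.37 ± 0.30 in vehicle samples (n = 5, SD). It ran from -2.82 in vehicle C to -1.77 in AM6545 B, and the groups overlapped. The log2 ratio of Gabrb2 to Gabrb1 was -2.27 ± 0.31 (n = 4, SD) and -2.33 ± 0.40 (n = 5, SD), from -2.75 in vehicle A to -1.92 in vehicle C. The ratio of Gabra2 to Gabra4 varied least of the 5 ratios computed, from -0.30 to -0.10 on the log2 scale over the 9 samples.

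Gabra2 and Gabra4, whose upstream bases are printed beside their levels for this reason, varied together most closely between samples. Of the 21 pairs of the 7 genes, this was the one pair whose Pearson correlation of log2 CPM passed an adjusted p of 0.05 (Pearson r = 0.905, exact permutation p = 0.00108, adjusted over the 21 pairs p = 0.0227; Spearman rho = 0.9, exact permutation p = 0.00203, adjusted p = 0.0426). The correlation was 0.94 for deviations from the group means, and 0.834 without AM6545 A and B, the samples farthest from the median. The adjusted p for r was above the threshold without AM6545 B (0.0604), AM6545 C (0.0604), AM6545 E (0.0964) or vehicle D (0.0740), with r from 0.885 to 0.906 in these. All correlations here share the libraries and their scaling.

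With all samples the other pairs did not pass by Pearson r, and Gabra2 with Gabra5 passed by rank. The number of pairs that passed by Pearson r was 3 without vehicle A and 2 with each sample's trend on transcript length removed. Gabra2 and Gabra5 had r = 0.778 (exact permutation p = 0.0129, adjusted p = 0.0902) and rho = 0.867 (exact permutation p = 0.00451, adjusted p = 0.0473), and r was 0.679 without the 2 farthest samples. Gabra3 and Gabrb2 had r = 0.779 (exact permutation p = 0.00911, adjusted p = 0.0902) and rho = 0.717 (exact permutation p = 0.0369, adjusted p = 0.155), with r = 0.510 without AM6545 E and vehicle C. Gabra4 and Gabra5 had r = 0.755 (exact permutation p = 0.0181, adjusted p = 0.0949) and rho = 0.767 (exact permutation p = 0.0214, adjusted p = 0.150), with r = 0.611 without the 2 farthest samples. Gabrb1 and Gabrd had r = 0.688 (exact permutation p = 0.0378, adjusted p = 0.159) and rho = 0.733 (exact permutation p = 0.0311, adjusted p = 0.155), with r = 0.454 without the 2 farthest samples. The usual partners Gabra4 and Gabrd had r = -0.238 (exact permutation p = 0.540, adjusted p = 0.709) and rho = -0.233 (exact permutation p = 0.552, adjusted p = 0.682), with r = -0.049 without the 2 farthest samples. Of the 21 pairs, 15 had r above 0 and the median r was 0.378.

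**Figure D4:**
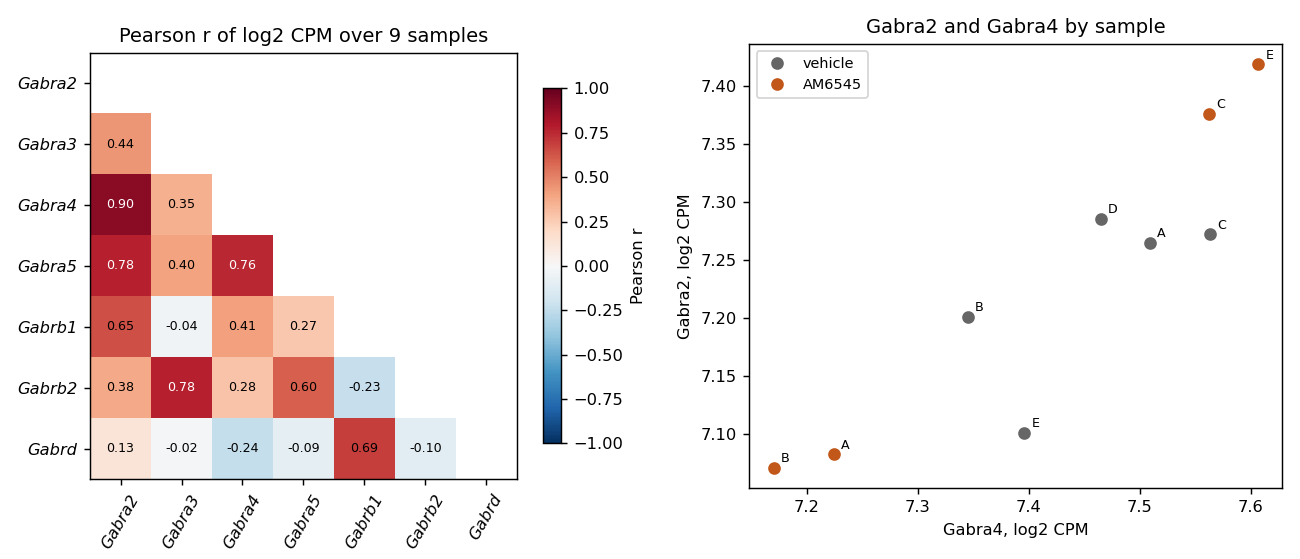
Left, Pearson r of log2 CPM over the 9 samples for each pair of subunit genes. Right, log2 CPM of Gabra2 (y axis) against Gabra4 (x axis), vehicle in grey and AM6545 in orange with replicate letters: AM6545 A and B lie below every vehicle sample on both axes, and AM6545 C and E lie above every vehicle sample for Gabra2 (r = 0.905).

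Gabra2, Gabra4 and Gabrb1 lie near each other on chromosome 5. In the RefSeq annotation of GRCm38.p6 Cox7b2 is the neighbour of both Gabra2 and Gabra4, and Gabra4 and Gabrb1 are direct neighbours on opposite strands. Gabra4 and Gabrb1 overlap at their starts, where 46 exon bases in GENCODE M21 are shared, or 0.756% of the exon bases of Gabra4 and 0.332% of those of Gabrb1. Of the 31-base words of Gabra4 and of Gabrb1, 0% occurred in another gene, with both strands searched. The part of the shared bases in the counts of either gene was not tested. This closest pair by position had r = 0.409 (exact permutation p = 0.269, adjusted p = 0.586) and rho = 0.233 (exact permutation p = 0.552, adjusted p = 0.682), with r = 0.458 without the 2 farthest samples.

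Over all tested genes, those whose log2 CPM followed each subunit gene most closely over the 9 samples were taken by Pearson r, as a description of samples that share libraries and scaling. Closest to Gabra2 were Tmem62 (r = 0.949) and Gpr22 (r = 0.947), and closest to Gabra4 were Snx13 (r = 0.982) and B4galt6 (r = 0.968). Closest to Gabra5 were Gldn (r = 0.972) and the potassium channel gene Kcnq5 (r = 0.937). Closest to Gabra3 were Gm3636 (r = 0.940) and the potassium channel gene Kcnh5 (r = 0.928). Closest to Gabrb1 were Iqsec3 (r = 0.979), whose protein binds gephyrin at inhibitory synapses, and Ptpre (r = 0.956). Closest to Gabrb2 were Rhbdl3 (r = 0.969) and Snx25 (r = 0.956). Among the closest to Gabrd was Mfge8 (r = 0.952). Between 4 genes, for Gabra3, and 32 genes, for Gabra2, had r above 0.9 with a member.

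Of the other 12 GABA-A subunit genes, 7 were tested, with mean levels from 0.147 to 956 CPM per kilobase, and the other 5 had at most 18 counts in a sample. By edgeR's quasi-likelihood test 0 of the 7 passed and 0 had an unadjusted p under 0.05, 5 were higher and 2 lower, and their median log2 fold change was 0.04. Of the genes with a higher level, the smallest p was that of Gabrr2, a rho subunit of low level (1.45 ± 0.662 CPM in AM6545 samples, n = 4, SD, and 1.13 ± 0.782 in vehicle samples, n = 5, SD; log2 fold change 0.40, edgeR adjusted p = 0.802). Of those with a lower level it was that of Gabrg1, for gamma1 (32.0 ± 5.62 CPM, n = 4, SD, and 34.4 ± 5.29 CPM, n = 5, SD; log2 fold change -0.10, edgeR adjusted p = 0.839).

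Of 26 genes for proteins that cluster or carry GABA-A receptors, 25 were tested and 0 passed by edgeR's test. At an unadjusted p under 0.05, 1 was higher and 2 were lower, where 7.21% of all genes tested had such a p. The median log2 fold change of the 25 was 0.09. Mdga1, whose protein binds neuroligin-2 and limits inhibitory synapse formation, was at 30.4 ± 4.36 CPM in AM6545 samples (n = 4, SD) and 23.0 ± 4.03 CPM in vehicle samples (n = 5, SD), a log2 fold change of 0.40 (edgeR adjusted p = 0.653). Gabarapl2 was at 272 ± 14.2 CPM (n = 4, SD) against 332 ± 43.9 CPM (n = 5, SD), a log2 fold change of -0.29 (edgeR adjusted p = 0.653), with every AM6545 sample below every vehicle sample. Groups without overlap, in either direction, were seen for 1.45% of all genes tested. Gabarap, whose protein binds a gamma subunit in trafficking and also serves autophagy, was at 97.1 ± 8.07 CPM (n = 4, SD) against 116 ± 19.2 CPM (n = 5, SD), a log2 fold change of -0.26 (edgeR adjusted p = 0.653).

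All 10 genes of GABA synthesis, transport and breakdown were tested and had a log2 fold change above 0, from 0.02 to 0.61 with a median of 0.18. Over all genes tested, 48.2% had a log2 fold change above 0. By edgeR's test 0 of them passed and 0 had an unadjusted p under 0.05. Of 13 inhibitory interneuron markers 5 had a log2 fold change above 0 and 8 below, and their summed level was 1055 to 1245 CPM in AM6545 samples and 1109 to 1250 CPM in vehicle samples. Gad1, Gad2 and Slc32a1 belong to both lists and are among the markers above 0, so the counts of the lists are not independent. Of the 6 GABA-B receptor genes 0 passed by edgeR's test, 2 were higher and 4 lower, with a median log2 fold change of -0.05. Gabbr2, for the signalling subunit, was at 191 ± 22.3 CPM (n = 4, SD) against 164 ± 14.5 CPM (n = 5, SD), a log2 fold change of 0.22 (edgeR adjusted p = 0.653).

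The effect of opening a GABA-A channel depends on the chloride gradient. Of 8 genes for chloride transport and its kinases 0 passed by edgeR's test, 3 were higher and 5 lower, with a median log2 fold change of -0.02. Stk39, for the kinase SPAK that regulates chloride cotransporters, was at 80.4 ± 9.97 CPM in AM6545 samples (n = 4, SD) and 105 ± 28.9 CPM in vehicle samples (n = 5, SD), a log2 fold change of -0.38 (edgeR adjusted p = 0.653). Neurosteroids act on delta-containing receptors in particular. Of 12 genes for neurosteroid synthesis 8 were tested, 2 higher and 6 lower, with a median log2 fold change of -0.20, and 0 passed or had an unadjusted p under 0.05 by edgeR's test. The smallest p in each direction belonged to the mitochondrial electron carrier gene Fdx1 (14.0 ± 1.54 CPM, n = 4, SD, and 16.8 ± 2.60 CPM, n = 5, SD; log2 fold change -0.26, edgeR adjusted p = 0.653) and to its reductase Fdxr (10.7 ± 0.696 CPM, n = 4, SD, and 9.80 ± 1.69 CPM, n = 5, SD; log2 fold change 0.13, edgeR adjusted p = 0.786).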

How the data were processed

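RNA from hippocampal synaptoneurosomes of 9 samples was sequenced from low-input SMARTer libraries, per the labels' protocols. Values in the deposited table are estimated counts for each gene, unscaled between samples, as its values show. Salmon 1.3 and DESeq2 1.30, with the builds GRCm39 and mm10, are named in the submitters' processing notes with no role; the strand setting is not given in the sources used here. Symbols were found for 22155 of 22255 identifiers, of which 99.95% carried another version number than GENCODE M21, so no coordinates of the table's genes are given. The promoter coordinates are those of the RefSeq table.

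Estimated counts were rounded to whole numbers, filtered with filterByExpr (14512 genes left), scaled with TMM and tested in edgeR 4.0.16 under R 4.3.3 (glmQLFit, glmQLFTest) over all 9 samples without covariates, with Benjamini-Hochberg adjustment over all genes tested. The size of a log2 fold change over the root of its F statistic gave the standard error, and 95% intervals use the test's 14.25 degrees of freedom for all 7 genes. Log2 CPM used a prior count of 2. Correlations were tested exactly over all pairings of samples (two-sided, numpy 2.4.6).

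Of the 31-base words of the 7 transcripts in M21, between 0% and 4.21% (Gabra5) occur in another gene. The title letters are shared by the groups, but nothing says what they mark.

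The subunit genes and the lists were chosen with earlier results of these data known. Genes named from a list are those with an unadjusted p under 0.05 or, where there were none, the smallest p in each direction; for each subunit gene the 2 closest genes by r are named. Some genes that this rule would name are not reported here. Marker lists were read as summed CPM. Alternatives were other size factors, filters, DESeq2 1.42.0, limma-voom (limma 3.58.1), robust fitting, a block for the title letter, removal of mitochondrially encoded genes or of a lowess trend (span 0.3) on transcript length in each sample, the longest transcript for lengths, and each sample left out. Those for correlations were chosen after the data were seen.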

Additional observations from a re-analysis of the deposited data

How the results depend on the processing

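Over 19 alternatives none of the 7 genes passed the adjusted threshold, and the log2 fold changes of Gabrb1, Gabrb2 and Gabrd stayed above 0. The number of genes past the threshold in the whole table was 0, with 0 to 1 when a sample was left out (1 without AM6545 A); genes with an unadjusted p under 0.05 numbered 663, 642, 690 and 1848 without AM6545 A, B, C and E, 496 and 1797 without vehicle A and B, and 866 to 1023 without the other vehicle samples. With each sample left out, log2 fold changes ran from -0.0425 to 0.0741 for Gabra2, -0.0371 to 0.167 for Gabra3, -0.127 to 0.0175 for Gabra4 and -0.0324 to 0.135 for Gabra5. With each sample's length trend removed Gabra2 was at -0.0207, a change of sign whose cause was not tested. With the title letter as a replicate block Gabrd was at 0.27 (edgeR adjusted p = 0.825, with an unadjusted p under 0.05) and 759 genes in place of 1047 had an unadjusted p under 0.05. Of 4 same-letter pairs 1 had a correlation of deviations over 0.1 (r = 0.336 for letter C), and 1 of 4 AM6545 samples was closest to its own letter. With so few pairs, these values cannot decide whether the letters mark a pairing. With the longest transcript as length, shares of the summed level moved to 9.78% for Gabra2, 16.0% for Gabra4, 52.2% for Gabra5, 6.76% for Gabrb1, 4.74% for Gabrb2 and 7.22% for Gabrd, as its construction entails. The order of genes whose transcripts differ much in length therefore rests on the length used. The correlation of Gabra2 and Gabra4 ran from 0.880 to 0.951 with each sample left out, and was 0.897 with other size factors, 0.909 with total counts and 0.874 with the length trend removed. Between 4 and 5 samples a group limit the comparison: the 95% intervals allow differences of up to 1.39-fold.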
